A study of Mus musculus with 12 samples.

Results

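The 46 genes described here encode the machinery that copies DNA and the enzymes and regulators that serve it in S phase, and were taken as a list of mouse symbols matched to the 48709 gene identifiers in each deposited count table. All 46 were found and all 46 passed the filter on low counts, so every one of them was tested. They fall into 9 roles: 6 genes of origin recognition and licensing, 6 of the MCM helicase, 8 of helicase activation, 6 of primase and the polymerases, 8 of the clamp, its loader and Okazaki fragment joining, 3 of single-strand binding, 4 of nucleotide supply, 3 of chromatin assembly and methylation copying, and 2 genes of cyclin E. RNA was sequenced from C57BL/6J mouse embryonic cortex at E15.5 in 12 libraries, 4 per group. One group carries a conditional knockout (cKO) of BAF155, a scaffold protein of the BAF chromatin remodeller that Smarcc1 encodes. A second group is labelled as a conditional knockout of Pax6, a transcription factor of cortical progenitors, and the remaining group is labelled control. The sources used here do not give the Cre line, the deleted exons, the control genotype or any pooling of embryos. The labels do not say whether libraries of a group come from separate embryos, and each p-value measures spread between libraries, which among the controls includes the difference in sex given below.

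Replication begins when the origin recognition complex, with Cdc6 and Cdt1, loads the ring-shaped MCM helicase onto DNA, a step called licensing that geminin blocks once S phase has started. The kinases Cdc7 and Cdk2, the latter partnered by cyclin E, then promote the recruitment of Cdc45, the GINS complex and Mcm10. This turns the loaded ring into a moving helicase, after which primase, the polymerases, the sliding clamp PCNA and its loader RFC synthesise the new strands. In the embryonic cortex these genes are expressed in cycling progenitors, the radial glia at the ventricle and the basal intermediate progenitors derived from them, and are low in neurons, and many of them are switched on by E2F transcription factors as cells enter S phase.

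Total counts ranged from 15.2 to 32.05 M reads per library. Levels are given as CPM, counts per M reads of a library size scaled by TMM. Smarcc1 was at 219.7 to 361 CPM in control, 115 to 139 CPM in the BAF155 cKO and 177 to 194 CPM in the libraries labelled Pax6 cKO. Counts over the whole Pax6 gene went against the label, at 82.0 to 125 CPM in control, 273 to 369 CPM in the BAF155 cKO and 379.9 to 399 CPM in the libraries labelled Pax6 cKO. With the deleted exons unknown, a count over the whole gene does not check the deletion itself. Those 4 libraries are called Pax6-labelled below, and no direction given for them shows what a loss of Pax6 does. Xist, an RNA of female cells, was at 964 CPM in control replicates 3 and 4 and reached 1811 to 3115 CPM in BAF155 cKO libraries. Control replicates 1 and 2 and the Pax6-labelled libraries held 5.75 CPM or less, so embryo sex differed between groups and within the controls. Control libraries came from sequencing lane 8, Pax6-labelled libraries and BAF155 cKO replicates 1 and 2 from lane 1, and BAF155 cKO replicates 3 and 4 from lane 3, per the deposited file names, so that lane and the step from control cannot be told apart. Of the cell type markers, 12 ventral telencephalon genes summed to 602 to 909.9 CPM in control, 1206 to 1373 CPM in the BAF155 cKO and 1416 to 1532 CPM in the Pax6-labelled libraries. The 10 genes of basal intermediate progenitors summed to 868 to 1255, 609 to 853 and 577 to 617 CPM in the same order, the 9 erythroid genes to 272 to 372, 344 to 666 and 499.6 to 557 CPM, and the 12 radial glia genes, which the labelled cortex should hold, to 2622 to 2927, 2102 to 2475 and 2346 to 2519.6 CPM. The 12 cortical neuron genes summed to 10365 to 11552 CPM in control, 7745 to 10033 CPM in the BAF155 cKO and 8591 to 9878 CPM in the Pax6-labelled libraries. For the 4 choroid plexus genes the sums were 11.3 to 27.0, 2.91 to 12.6 and 13.7 to 321 CPM in the same order. The part of these shifts in the results below was not tested, and in bulk RNA fewer cycling cells and less RNA per cell cannot be told apart.

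Setting the BAF155 cKO against control, a comparison that the series design names, called 10 of the 46 replication genes higher and 0 lower, with 36 not passing the test. Among all 16511 genes tested, 6.04% were called higher and 7.56% lower. Calls were made by edgeR's quasi-likelihood test at an adjusted p under 0.05, adjusted over all genes tested. At an unadjusted p under 0.05, 13 of the 46 were higher and 3 lower, where 16.2% and 16.6% of all genes were. DESeq2 called 11 higher and 1 lower, against 8.35% and 9.29% of all genes. In the Pax6-labelled libraries against the same controls 14 were called higher and 5 lower, with 27 not passing, where the share of all genes was 16.6% higher and 18.9% lower. The median log2 fold change of the 46 was 0.01 in the BAF155 cKO, against 0.01 over all genes, and 0.11 in the Pax6-labelled libraries, against 0.02 over all genes. The genes did not move as a block: log2 fold changes ran from −0.59 to 0.68 in the BAF155 cKO and from −0.76 to 0.93 in the Pax6-labelled libraries, and they differed between subunits of the same complex.

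**Figure D1:**
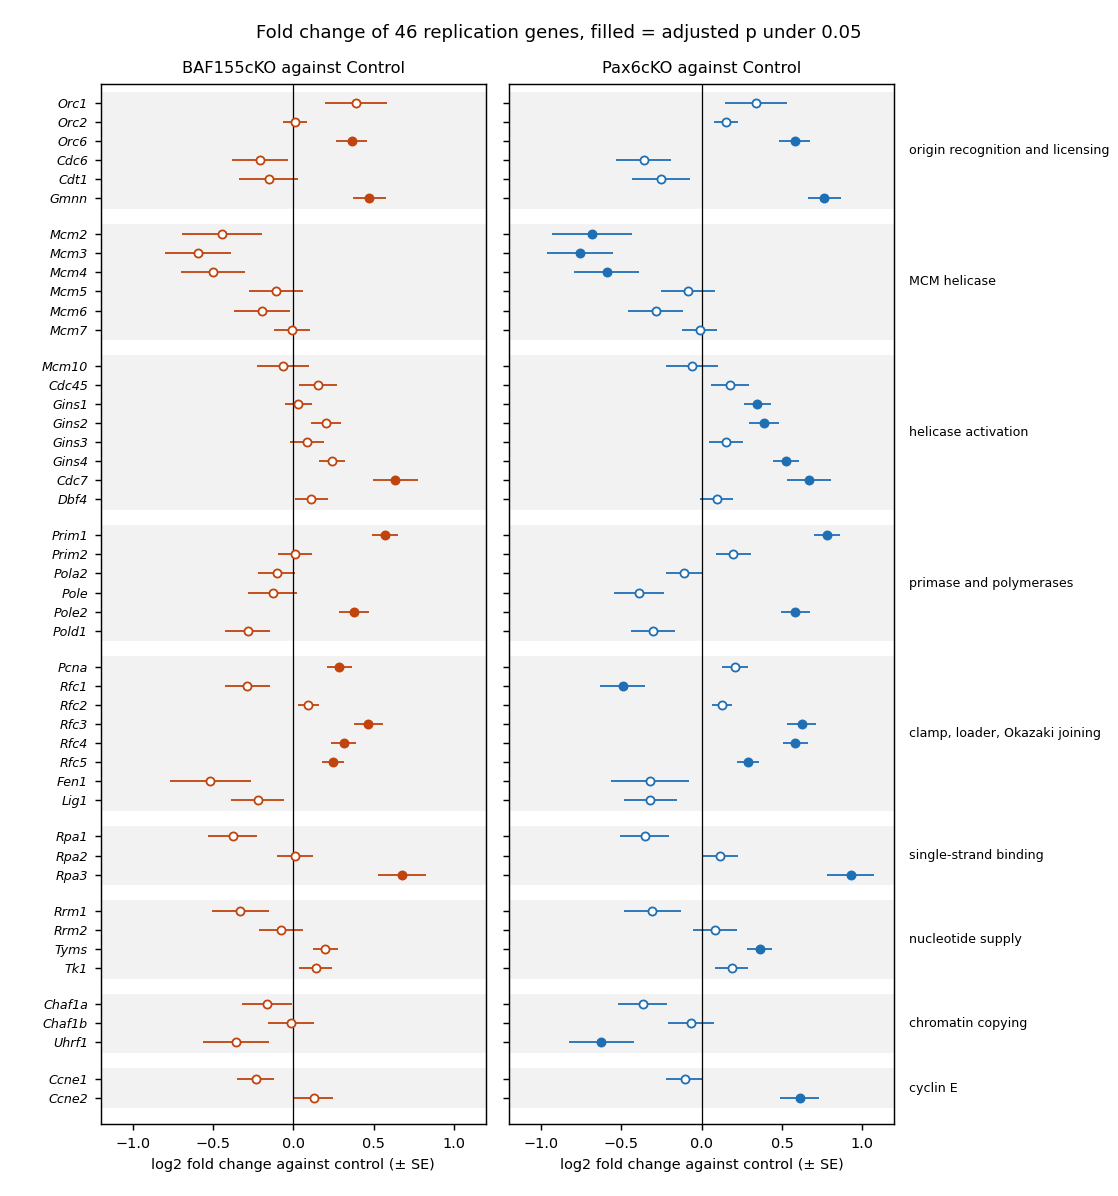
Log2 fold change against control (x axis, with the standard error as bars) of each of the 46 replication genes, ordered by role, in the BAF155 cKO (left) and the Pax6-labelled libraries (right), with filled points at an adjusted p under 0.05. All 6 MCM points lie at or below 0 in both panels, while Prim1, Rfc3, Cdc7, Gmnn and Rpa3 lie to the right of 0 in both.

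Library by library, all 4 BAF155 cKO values lay above all 4 control values for 12 of the 46 genes and below for 0, where 6.47% and 7.95% of all genes did so. In the Pax6-labelled libraries 17 lay above and 1, Rfc1, lay below, where 17.2% and 18.3% of all genes did so. The controls themselves were spread widely. Summed over the 46 genes, control replicates 1 to 4 were at 2089, 2598, 2885 and 2877 CPM, and replicate 1 was above the mean of the controls for 6 of the 46 genes, replicate 2 for 23, replicate 3 for 34 and replicate 4 for 37. The BAF155 cKO summed to 2389, 2945, 2529 and 2371 CPM and the Pax6-labelled libraries to 2512, 2730.2, 2579 and 2687 CPM, both within the range of the controls except for BAF155 cKO replicate 2. The low control, replicate 1, and replicate 2 are the controls with little Xist RNA.

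**Figure D2:**
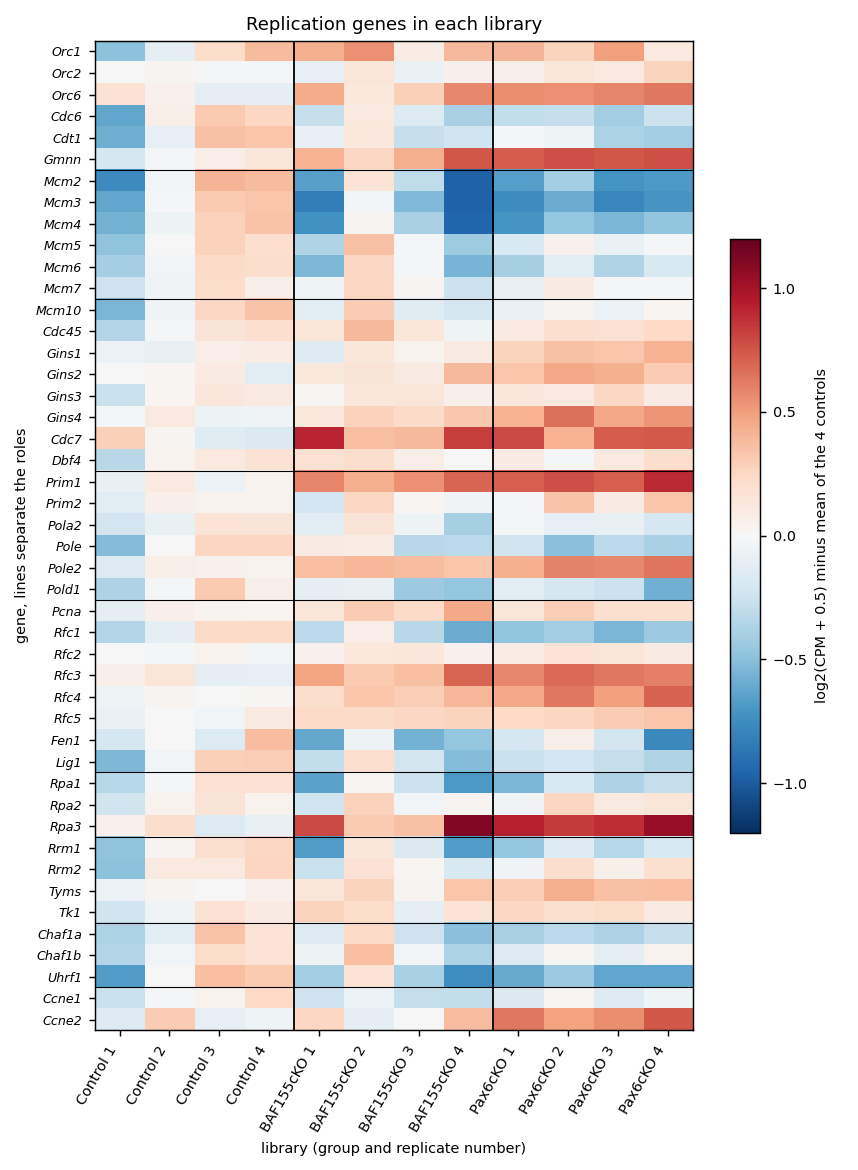
Colour gives log2(CPM + 0.5) minus the mean of the 4 controls for the 46 replication genes (y axis, lines separate roles) in the 12 libraries (x axis, by group and replicate). Control replicate 1 is blue in most roles, where 6 of 46 genes lie above the control mean, and Mcm2, Mcm3 and Mcm4 are darkest blue in BAF155 cKO replicate 4 and blue in control replicate 1 and all 4 Pax6-labelled libraries.

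RefSeq promoters, which run from 250 bases before to 50 bases after an annotated start in GRCm38.p6, were matched by symbol for 37 of the 46 genes. The letters of the classical E2F site were searched on both strands in 4 forms, TTTCCCGC, TTTCGCGC, TTTGCCGC and TTTGGCGC, with overlapping matches counted. At least 1 form was present in 13 of the 37 genes (35.1%), against 704 of 27025 genes in the whole table (2.61%). The CCAAT box, the letters CCAAT on either strand, was present in 22 of the 37 (59.5%), against 41.1% of all genes. Split by call in the Pax6-labelled libraries, the E2F letters were present in 2 of 9 genes called higher, 2 of 4 called lower and 9 of 24 not called. In the BAF155 cKO they were present in 2 of 9 called higher and 11 of 28 not called. The letters were therefore found among genes that rose, fell and did not pass the test alike. Promoters of 4 genes are printed to show this: Rfc3 and Pole2 were called higher in both comparisons, Mcm3 was called lower in the Pax6-labelled libraries and Mcm6 was not called. They lie at chr5:151651159-151651458, chr12:69228141-69228440, chr1:20820263-20820562 and chr1:128359656-128359955 in this order, all on the minus strand, and are written 5′ to 3′ in the direction of transcription with the E2F letters in capitals.
Rfc3: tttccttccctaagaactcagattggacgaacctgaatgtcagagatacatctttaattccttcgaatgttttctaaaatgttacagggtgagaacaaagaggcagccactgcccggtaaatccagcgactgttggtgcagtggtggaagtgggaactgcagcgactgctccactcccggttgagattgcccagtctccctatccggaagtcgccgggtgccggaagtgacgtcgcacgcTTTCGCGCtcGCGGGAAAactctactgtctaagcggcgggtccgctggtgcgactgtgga
Pole2: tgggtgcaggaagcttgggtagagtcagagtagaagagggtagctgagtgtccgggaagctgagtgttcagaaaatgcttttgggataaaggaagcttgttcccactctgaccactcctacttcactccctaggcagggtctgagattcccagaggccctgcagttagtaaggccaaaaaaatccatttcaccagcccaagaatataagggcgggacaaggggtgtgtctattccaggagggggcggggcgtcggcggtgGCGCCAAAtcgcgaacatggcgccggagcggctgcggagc
Mcm3: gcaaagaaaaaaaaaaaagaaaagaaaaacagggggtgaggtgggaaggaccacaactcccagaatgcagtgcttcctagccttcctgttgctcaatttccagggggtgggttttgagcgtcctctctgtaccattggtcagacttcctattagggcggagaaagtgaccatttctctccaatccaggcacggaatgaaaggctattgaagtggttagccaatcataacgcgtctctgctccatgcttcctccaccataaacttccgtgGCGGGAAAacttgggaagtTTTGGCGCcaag
Mcm6: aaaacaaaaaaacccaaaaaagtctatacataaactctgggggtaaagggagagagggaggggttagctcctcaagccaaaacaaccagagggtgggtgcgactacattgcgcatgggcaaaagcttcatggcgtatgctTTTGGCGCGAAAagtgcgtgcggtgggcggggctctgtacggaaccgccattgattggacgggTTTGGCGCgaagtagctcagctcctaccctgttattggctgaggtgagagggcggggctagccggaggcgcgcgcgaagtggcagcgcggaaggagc
In Mcm6 a pair of matches overlap, which makes 1 capital run of 12 letters, and the other match lies closer to the annotated start. Bases just after that start were found in a GENCODE M21 transcript of the gene for Rfc3, Pole2 and Mcm3. For Mcm6 they were not, so its start is not checked. Rfc3 and Mcm3 hold 2 matches each and Pole2 holds 1. A match of letters is a description of the sequence and shows neither binding nor a cause.

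Among the 6 genes of origin recognition and licensing, 2 were called higher and 0 lower in both comparisons, and the subunits parted from one another. Beside this role and each role and list below, 6.04% of all genes were called higher and 7.56% lower in the BAF155 cKO. The Pax6-labelled shares in the same fit were 16.6% and 18.9%. Roles hold few genes, so a count of calls is not read as a trait of a role. Orc6, a subunit of the origin recognition complex, was at 75.7, 69.6, 62.3 and 62.3 CPM in control replicates 1 to 4. BAF155 cKO replicates gave 91.6, 73.5, 82.2 and 101 CPM and Pax6-labelled replicates 99.5, 98.3, 101 and 104 CPM. BAF155 cKO replicate 2 lay within the range of the controls and all 4 Pax6-labelled values lay above it. In the BAF155 cKO the change on the log2 scale was 0.36 (SE 0.10, adjusted p = 0.0233), against 0.58 (SE 0.10, adjusted p = 0.000609) in the Pax6-labelled libraries. The first of these calls was lost when control replicate 3 or 4 or BAF155 cKO replicate 1 or 4 was left out, with an adjusted p of up to 0.0867. Gmnn (ENSMUSG00000006715, mm10 chromosome 13, 24751845 to 24761923, minus strand) encodes geminin, which binds Cdt1 and prevents origins from being licensed again in the same cycle. Its level was 21.5, 24.8, 26.5 and 27.6 CPM in control replicates 1 to 4. For the BAF155 cKO these values were 33.6, 29.8, 34.0 and 42.3 CPM, and for the Pax6-labelled libraries 41.7, 43.2, 42.2 and 43.2 CPM. No library of either group overlapped the controls. Gmnn rose by 0.47 on the log2 scale (SE 0.10, adjusted p = 0.00891) and 0.76 (SE 0.10, adjusted p = 0.000124) in the same order. With the trend of each library on GC content and gene length removed, the BAF155 cKO call was lost (adjusted p = 0.0925) and the Pax6-labelled one was kept at a log2 fold change of 0.45 (adjusted p = 0.00738).

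Cdt1 and Cdc6, the loaders of the MCM ring, had negative log2 fold changes that did not pass the test. Cdt1 was at 12.5, 17.7, 24.5 and 24.1 CPM in control replicates 1 to 4. Replicates of the BAF155 cKO were at 17.8, 20.9, 15.6 and 16.0 CPM and Pax6-labelled ones at 18.9, 18.4, 14.5 and 14.2 CPM. Control replicate 1 lay below all other libraries. Cdc6 was at 9.65, 15.9, 19.0 and 18.2 CPM in control replicates 1 to 4. The BAF155 cKO libraries held 12.4, 16.5, 13.5 and 11.49 CPM, while the Pax6-labelled libraries held 12.3, 12.5, 11.3 and 12.6 CPM. Without control replicate 1, the Pax6-labelled libraries were called lower for Cdc6 (log2 fold change −0.57, adjusted p = 0.00313) and Cdt1 (−0.45, adjusted p = 0.0265), and the BAF155 cKO for Cdc6 (−0.39, adjusted p = 0.0418). Orc1 and Orc2, the other measured subunits of the origin recognition complex, did not pass the test in either comparison. Orc1, at 2.64 to 5.25 CPM in control, had log2 fold changes of 0.39 (SE 0.19) and 0.34 (SE 0.19). For Orc2 they were 0.01 (SE 0.08) and 0.15 (SE 0.08), and 29.8% of its exon length overlaps exons of Nif3l1 on the other strand, whose reads cannot be told apart in libraries that do not mark strand.

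The MCM helicase, the hexamer of Mcm2 to Mcm7 that unwinds DNA at the fork, held the lowest log2 fold change of the list in both comparisons, that of Mcm3. All 6 log2 fold changes were negative in both comparisons, with 3 called lower in the Pax6-labelled libraries and 0 in the BAF155 cKO, where 2 had an unadjusted p under 0.05 and DESeq2 called Mcm3 alone. The 6 genes summed to 469.96, 643, 800.4 and 779 CPM in control, 474, 749, 589 and 427 CPM in the BAF155 cKO, and 494, 578, 513 and 537 CPM in the Pax6-labelled libraries. Control replicate 1 thus lay with the lowest libraries of the other groups, and BAF155 cKO replicate 2 with controls 3 and 4. Mcm3 (ENSMUSG00000041859, mm10 chromosome 1, 20802968 to 20820312, minus strand) was at 63.5, 96.5, 123 and 124 CPM in control replicates 1 to 4. Levels reached 54.9, 96.2, 67.7 and 49.98 CPM in BAF155 cKO replicates and 57.9, 65.1, 57.1 and 60.04 CPM in Pax6-labelled ones. Pax6-labelled replicate 2 was above control replicate 1 and the other 3 Pax6-labelled libraries were below every control. In the BAF155 cKO the change on the log2 scale was −0.59 (SE 0.21, adjusted p = 0.066), against −0.76 (SE 0.21, adjusted p = 0.0112) in the Pax6-labelled libraries. Mcm2 was at 58.6, 97.6, 133 and 129.7 CPM in control replicates 1 to 4. BAF155 cKO replicates gave 63.4, 112, 80.8 and 50.7 CPM and Pax6-labelled replicates 62.8, 75.1, 60.5 and 61.4 CPM. The log2 fold changes were −0.44 (SE 0.25, adjusted p = 0.226) and −0.69 (SE 0.25, adjusted p = 0.0453). Control replicate 1 was below all 4 Pax6-labelled libraries and the other 3 controls were above them. The Mcm2 call in the Pax6-labelled libraries was lost in 8 of the 12 fits without a library (adjusted p of up to 0.153), those without control replicate 2, 3 or 4, BAF155 cKO replicate 1 or 3 or Pax6-labelled replicate 1, 3 or 4. The Mcm3 call was kept in all 12 (adjusted p of up to 0.0478) and lost without a filter on low counts.

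Mcm4 was at 56.5, 80.7, 102 and 107 CPM in control replicates 1 to 4. For the BAF155 cKO these values were 50.7, 86.1, 64.0 and 43.2 CPM, and for the Pax6-labelled libraries 51.4, 60.6, 57.4 and 60.3 CPM. Its log2 fold changes were −0.50 (SE 0.20, adjusted p = 0.104) and −0.59 (SE 0.20, adjusted p = 0.0334). Only control replicate 1 lay within the range of the Pax6-labelled libraries, where the Mcm4 call was lost without control replicate 3 or 4 or Pax6-labelled replicate 1, 3 or 4 (adjusted p of up to 0.114). The other 3 subunits moved less, and none of them passed the test. Mcm7, at 32.4 CPM per kb of exon the MCM gene of highest level per length in control, was at 119.8, 139, 166 and 149 CPM in control replicates 1 to 4. Replicates of the BAF155 cKO were at 137, 169, 146 and 119 CPM and Pax6-labelled ones at 134, 153, 141 and 141 CPM. These groups overlapped and the log2 fold changes were −0.01 (SE 0.11) and −0.01 (SE 0.11). Mcm5 had log2 fold changes of −0.11 (SE 0.17) and −0.09 (SE 0.17), and Mcm6 of −0.20 (SE 0.17) and −0.29 (SE 0.17).

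The MCM calls differed with the controls used. Against control replicates 1 and 2, which match the Pax6-labelled libraries in sex, Mcm2, Mcm3 and Mcm4 were not called (adjusted p = 0.607, 0.284 and 0.518) and the role's median log2 fold change was −0.16 in place of −0.44. In that fit 13 of the 46 genes were called higher and 0 lower, where 3.07% and 4.9% of all genes were. Against control replicates 3 and 4, which match the BAF155 cKO in sex, the same 3 genes were called lower in the BAF155 cKO at log2 fold changes of −0.78, −0.89 and −0.79 (adjusted p = 0.0333, 0.0086 and 0.0168), and 12 of the 46 genes were called lower, where 14.5% of all genes were. Without control replicate 1 alone, 9 genes were called lower in the BAF155 cKO and 13 in the Pax6-labelled libraries, where 11.2% and 22.2% of all genes were. Without BAF155 cKO replicate 2, 6 were called lower in the BAF155 cKO, where 12.6% of all genes were. Without control replicate 3, or without replicate 4, 1 gene was called lower in the Pax6-labelled libraries in place of 5, and the share of all genes was 12.4% and 12.9%. Embryo sex and the difference between individual control libraries cannot be told apart here.

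**Figure D3:**
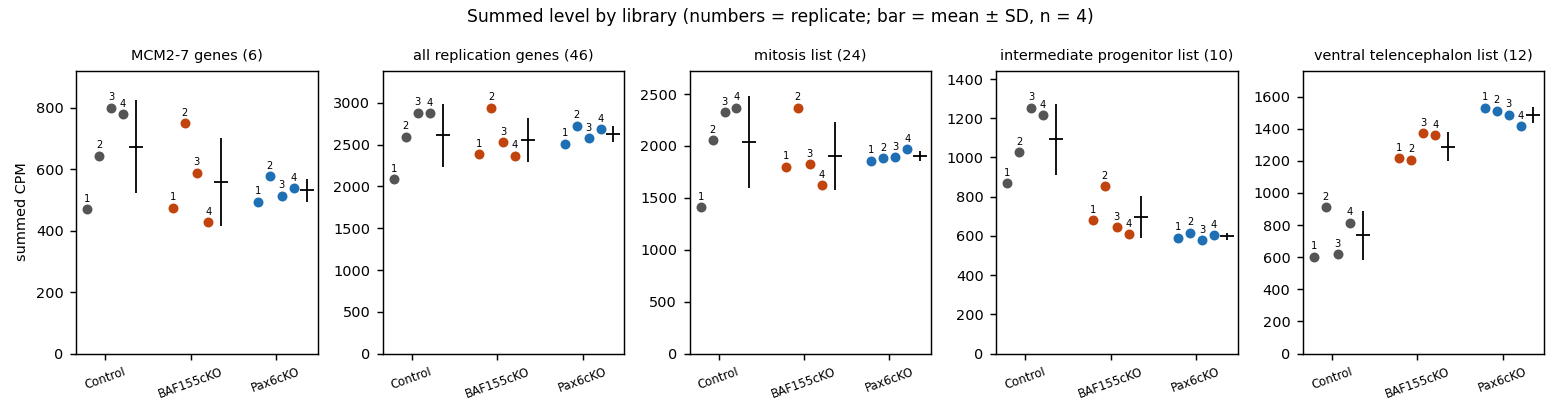
Summed CPM (y axis, from 0) in each library by group for the 6 MCM genes, all 46 replication genes, and the lists of mitosis, basal intermediate progenitor and ventral telencephalon genes; points are libraries with their replicate number and bars are the mean ± SD over n = 4. The MCM sums of the BAF155 cKO, 427 to 749 CPM, span most of the range of the controls, 469.96 to 800.4 CPM, whereas the ventral telencephalon sums of both groups lie above every control.

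Helicase activation held 8 genes, of which 1 was called higher in the BAF155 cKO and 4 in the Pax6-labelled libraries, with 0 lower in either. Summed, they were at 236 to 262 CPM in control, 282 to 313 CPM in the BAF155 cKO and 311 to 334 CPM in the Pax6-labelled libraries, with no overlap with control. Genes of higher CPM, Cdc7 among them, weigh more in this sum. The median log2 fold change of the 8 genes was 0.13 in the BAF155 cKO and 0.26 in the Pax6-labelled libraries. Cdc7 (ENSMUSG00000029283, mm10 chromosome 5, 106964322 to 106984432, plus strand), the kinase that phosphorylates the loaded MCM ring to fire an origin, was at 71.2, 59.5, 52.7 and 51.5 CPM in control replicates 1 to 4. The BAF155 cKO libraries held 110.4, 74.7, 76.3 and 104 CPM, while the Pax6-labelled libraries held 101, 78.2, 96.9 and 97.6 CPM. Every library of both groups was above every control, with control replicate 1 close to BAF155 cKO replicates 2 and 3. In the BAF155 cKO, Cdc7 rose by 0.64 on the log2 scale (SE 0.14, adjusted p = 0.00839), a call kept when any of the 12 libraries was left out (adjusted p at most 0.0334). In the Pax6-labelled libraries it rose by 0.67 (SE 0.14, adjusted p = 0.00272), a call lost against same-sex controls (adjusted p = 0.0692). Dbf4, the activating subunit of that kinase, was at 40.6 to 58.0 CPM in control, 51.4 to 59.6 CPM in the BAF155 cKO and 50.9 to 59.3 CPM in the Pax6-labelled libraries and did not pass the test, with log2 fold changes of 0.11 (SE 0.10) and 0.09 (SE 0.10).

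The 4 GINS genes encode the ring that joins Cdc45 and MCM in the active helicase. Gins4, the member of this role with the highest level per length in control (27.4 CPM per kb), was at 36.5, 40.0, 35.2 and 35.9 CPM in control replicates 1 to 4. Levels reached 40.4, 44.6, 43.3 and 46.2 CPM in BAF155 cKO replicates and 49.2, 58.5, 51.0 and 53.4 CPM in Pax6-labelled ones. The 3 groups did not overlap. In the BAF155 cKO the change on the log2 scale was 0.24 (SE 0.08, adjusted p = 0.057), against 0.52 (SE 0.08, adjusted p = 0.000299) in the Pax6-labelled libraries, where the call held in every fit run, at 0.25 with the GC and length correction (adjusted p = 0.0319). Gins1 was at 24.4, 24.1, 27.1 and 27.3 CPM in control replicates 1 to 4. BAF155 cKO replicates gave 22.9, 28.2, 26.4 and 27.6 CPM and Pax6-labelled replicates 30.9, 32.9, 32.6 and 34.5 CPM. Here the BAF155 cKO overlapped the controls and the Pax6-labelled libraries lay above both groups, at log2 fold changes from control of 0.03 (SE 0.09, adjusted p = 0.814) and 0.35 (SE 0.09, adjusted p = 0.00664). The latter call was lost with the GC and length correction (adjusted p = 0.883). Gins2 was at 16.5, 16.9, 17.8 and 15.1 CPM in control replicates 1 to 4. For the BAF155 cKO these values were 18.2, 18.5, 17.8 and 21.9 CPM, and for the Pax6-labelled libraries 20.9, 22.9, 22.4 and 20.5 CPM. It was called in the Pax6-labelled libraries alone, at 0.39 (SE 0.09, adjusted p = 0.00564) against 0.20 (SE 0.09, adjusted p = 0.148) for BAF155 cKO libraries, and the difference of the pair did not pass the test (adjusted p = 0.259). Exons of Gse1 overlap 67.3% of its exon length on the other strand, and against same-sex controls the Gins2 call was lost (adjusted p = 0.0602). Gins3, Cdc45 and Mcm10 did not pass the test, with log2 fold changes between −0.06 and 0.17 over both comparisons.

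Of the 6 genes of primase and the polymerases, 2 were called higher and 0 lower in both comparisons, among them the gene with the smallest adjusted p of the list. Prim1 (ENSMUSG00000025395, mm10 chromosome 10, 128015168 to 128030037, plus strand), the catalytic subunit of the primase that lays down the RNA primers, was at 54.3, 62.8, 55.1 and 59.4 CPM in control replicates 1 to 4. Replicates of the BAF155 cKO were at 86.8, 78.1, 84.7 and 94.3 CPM and Pax6-labelled ones at 95.4, 98.9, 95.2 and 108 CPM. The 3 groups were fully separate and in this order. Prim1 rose in both groups, in the BAF155 cKO by 0.57 on the log2 scale (SE 0.08, adjusted p = 0.000298) and by 0.78 (SE 0.08, adjusted p = 9.26e-06) in the Pax6-labelled libraries. Both calls held in all 12 fits that left out a library and in every other setting run, 10 for the BAF155 cKO (adjusted p of at most 0.00669) and 8 for the Pax6-labelled libraries (at most 0.000365). Prim2, its partner in the primase heterodimer, was at 38.8 to 44.5 CPM in control, 36.4 to 50.8 CPM in the BAF155 cKO and 42.2 to 54.3 CPM in the Pax6-labelled libraries and did not pass the test, at 0.01 (SE 0.11) and 0.20 (SE 0.11).

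Pole2, the accessory subunit of the leading-strand polymerase epsilon, was at 10.05, 11.98, 11.8 and 11.7 CPM in control replicates 1 to 4. The BAF155 cKO libraries held 14.7, 15.2, 14.8 and 14.4 CPM, while the Pax6-labelled libraries held 15.47, 17.5, 17.2 and 18.03 CPM. The 3 groups were again separate, with log2 fold changes of 0.38 (SE 0.09, adjusted p = 0.0165) and 0.58 (SE 0.09, adjusted p = 0.00043). The BAF155 cKO call for Pole2 was lost with the GC and length correction, without a filter on low counts and with replicates 1 and 2 or 3 and 4 alone (adjusted p of up to 0.09999). Pole, the catalytic subunit of that polymerase, was at 37.0 to 64.0 CPM in control, 42.3 to 57.3 CPM in the BAF155 cKO and 37.6 to 45.03 CPM in the Pax6-labelled libraries. Its log2 fold changes, −0.13 (SE 0.15, adjusted p = 0.574) and −0.39 (SE 0.15, adjusted p = 0.0589), did not pass the test. Pold1, the catalytic subunit of the lagging-strand polymerase delta, and Pola2, a subunit of the primase-bound polymerase alpha, did not pass either, at −0.28 and −0.30 for Pold1 and −0.10 and −0.11 for Pola2.

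**Figure D4:**
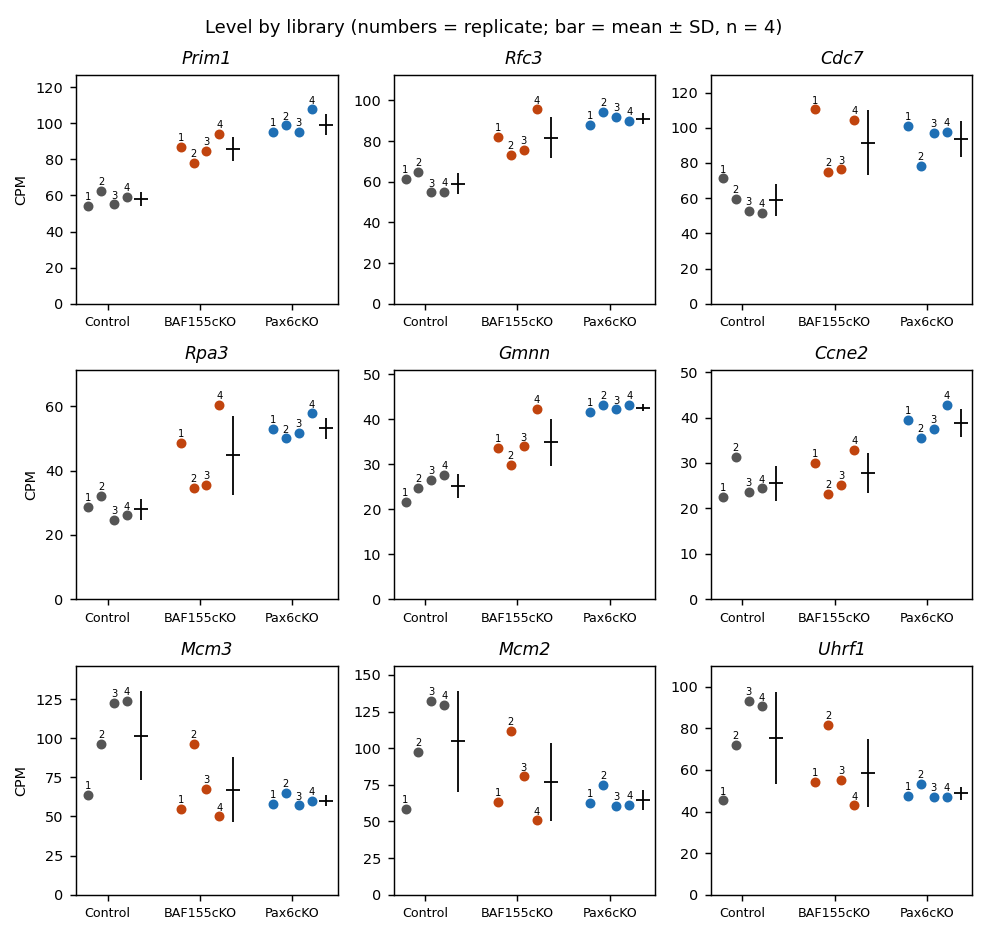
CPM (y axes, from 0) of 9 replication genes in each library, with replicate numbers beside the points and bars at the mean ± SD over n = 4 libraries of a group. For Prim1 the 3 groups are separate, for Ccne2 the BAF155 cKO overlaps control, and for Mcm3, Mcm2 and Uhrf1 control replicate 1 sits with the Pax6-labelled libraries.

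The clamp, its loader and Okazaki fragment joining held 8 genes, with 4 called higher in the BAF155 cKO and 3 higher and 1 lower in the Pax6-labelled libraries. Pcna, the sliding clamp that tethers the polymerases, was at 82.2, 92.8, 91.0 and 90.8 CPM in control replicates 1 to 4. Levels reached 98.3, 111, 105 and 122 CPM in BAF155 cKO replicates and 98.3, 109, 102 and 102 CPM in Pax6-labelled ones. Both groups lay above every control. The log2 fold change in the BAF155 cKO was 0.29 (SE 0.08, adjusted p = 0.0287), against 0.21 (SE 0.08, adjusted p = 0.0532) in the Pax6-labelled libraries, and the difference of the pair did not pass the test (adjusted p = 0.606). The Pcna call was lost in 4 of the 12 fits without a library, those without control replicate 1, 3 or 4 or BAF155 cKO replicate 4 (adjusted p of up to 0.104). It was also lost in 5 of the 10 other settings (adjusted p of up to 0.597). These were no filter on low counts, only the 8 libraries compared, the GC and length correction, same-sex controls, and BAF155 cKO replicates 1 and 2 alone.

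The loader RFC has the large subunit Rfc1, which opens the clamp together with the small subunits Rfc2 to Rfc5, and these parted. Rfc3 (ENSMUSG00000033970, mm10 chromosome 5, 151642756 to 151651242, minus strand) was at 61.5, 64.9, 54.7 and 54.8 CPM in control replicates 1 to 4. BAF155 cKO replicates gave 82.0, 73.3, 75.5 and 95.5 CPM and Pax6-labelled replicates 87.9, 94.4, 91.8 and 89.8 CPM. Neither group overlapped the controls. Rfc3 rose by 0.47 on the log2 scale (SE 0.09, adjusted p = 0.00372) and 0.62 (SE 0.09, adjusted p = 0.000198), and both calls held in every fit run. Rfc4 was at 37.2, 39.5, 38.6 and 39.1 CPM in control replicates 1 to 4. For the BAF155 cKO these values were 44.8, 48.7, 47.4 and 51.1 CPM, and for the Pax6-labelled libraries 53.2, 60.2, 54.6 and 63.3 CPM. The groups were again separate. Its log2 fold changes were 0.32 (SE 0.08, adjusted p = 0.0164) and 0.58 (SE 0.08, adjusted p = 0.0001), and both calls were lost with the GC and length correction (adjusted p = 0.582 and 0.0895), the first also without BAF155 cKO replicate 4 (adjusted p = 0.0588). Rfc5 was at 32.1, 33.8, 33.1 and 36.6 CPM in control replicates 1 to 4. Replicates of the BAF155 cKO were at 39.9, 39.7, 40.4 and 40.9 CPM and Pax6-labelled ones at 40.1, 40.6, 42.03 and 42.9 CPM. It was called at 0.25 (SE 0.07, adjusted p = 0.0313) and 0.29 (SE 0.07, adjusted p = 0.00589), the first lost in 7 of the 12 fits without a library, those without control replicate 1, 2 or 3, BAF155 cKO replicate 1, 3 or 4 or Pax6-labelled replicate 3 (adjusted p of up to 0.0908). The BAF155 cKO call of Rfc5 was also lost in 5 of the 10 other settings, same-sex controls among them (adjusted p of up to 0.179). Rfc2 did not pass the test, at 0.09 (SE 0.06) and 0.13 (SE 0.06), although all 4 libraries of both groups lay above the controls.

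Rfc1 was at 53.2, 63.0, 80.1 and 80.2 CPM in control replicates 1 to 4. The BAF155 cKO libraries held 54.9, 72.0, 54.1 and 44.9 CPM, while the Pax6-labelled libraries held 49.0, 50.7, 46.4 and 50.4 CPM. The Pax6-labelled values lay below every control and the BAF155 cKO overlapped both. The log2 fold change in the BAF155 cKO was −0.29 (SE 0.14, adjusted p = 0.168), against −0.49 (SE 0.14, adjusted p = 0.0143) in the Pax6-labelled libraries. The latter call was lost without control replicate 3 or 4 and against same-sex controls (adjusted p = 0.31). Lig1, the ligase that seals Okazaki fragments, was at 63.9 to 114 CPM in control, 64.6 to 107 CPM in the BAF155 cKO and 72.5 to 79.5 CPM in the Pax6-labelled libraries and did not pass the test. Fen1, the nuclease that trims the fragments' flaps, had the lowest level per length of the 46 genes in control, 0.931 CPM per kb. Its values were 1.85 to 3.01 CPM in control, 1.28 to 2.11 CPM in the BAF155 cKO and 1.09 to 2.36 CPM in the Pax6-labelled libraries, from counts as low as 21 reads, and it did not pass the test. Exons of the antisense gene Gm10143 overlap 78.8% of its exon length, and the sources used here do not give how reads shared by overlapping genes were counted.

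The 3 genes of single-strand binding encode RPA, the trimer that coats exposed single strands, and they also parted. Rpa3 (ENSMUSG00000012483, mm10 chromosome 6, 8255936 to 8259173, minus strand), its small subunit, was at 28.8, 32.2, 24.7 and 26.1 CPM in control replicates 1 to 4. Levels reached 48.6, 34.6, 35.5 and 60.5 CPM in BAF155 cKO replicates and 53.1, 50.1, 51.7 and 57.9 CPM in Pax6-labelled ones. All libraries of both groups lay above the controls, and BAF155 cKO replicates 1 and 4 lay well above replicates 2 and 3. Rpa3 rose by 0.68 on the log2 scale (SE 0.15, adjusted p = 0.00896) and 0.93 (SE 0.15, adjusted p = 0.000473), the highest log2 fold change of the 46 genes in each comparison. Rpa3 had the lowest GC content of the list (37.3%) and the shortest exon length (1.14 kb), and with the GC and length correction its log2 fold change was 0.23 in the BAF155 cKO (adjusted p = 0.0914) and 0.41 in the Pax6-labelled libraries (adjusted p = 0.00383). The large subunit Rpa1 was at 75.1 to 108 CPM in control, 58.9 to 96.7 CPM in the BAF155 cKO and 65.2 to 84.1 CPM in the Pax6-labelled libraries, with log2 fold changes of −0.38 (SE 0.15, adjusted p = 0.102) and −0.36 (SE 0.15, adjusted p = 0.0791) that did not pass the test. Rpa2, the middle subunit, had 0.01 (SE 0.11) and 0.12 (SE 0.11).

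Of the 4 genes of nucleotide supply, 0 were called in the BAF155 cKO and 1 was called higher in the Pax6-labelled libraries. Rrm2, the small subunit of ribonucleotide reductase, which makes deoxynucleotides, had the highest level per length of the 46 genes in control, 53.4 ± 11.2 CPM per kb (SD, n = 4). It was at 103, 158, 157 and 174 CPM in control replicates 1 to 4. BAF155 cKO replicates gave 121, 164, 148 and 128 CPM and Pax6-labelled replicates 141, 168, 151 and 167 CPM. The groups overlapped, at log2 fold changes of −0.08 (SE 0.14) and 0.08 (SE 0.14). Tyms, the thymidylate synthase, was at 38.6, 41.4, 40.4 and 41.9 CPM in control replicates 1 to 4. For the BAF155 cKO these values were 44.8, 48.8, 41.5 and 51.1 CPM, and for the Pax6-labelled libraries 49.8, 54.9, 51.8 and 52.1 CPM. Its Pax6-labelled values lay above every control, at 0.36 on the log2 scale (SE 0.08, adjusted p = 0.00321) that was called in every fit run, against 0.20 (SE 0.08, adjusted p = 0.0974) in the BAF155 cKO. The large reductase subunit Rrm1, at −0.33 and −0.31, and the salvage enzyme thymidine kinase Tk1, at 0.14 and 0.19, did not pass the test.

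Of the 3 genes that copy chromatin and methylation behind the fork, Uhrf1 was called in the Pax6-labelled libraries. Uhrf1 (ENSMUSG00000001228, mm10 chromosome 17, 56303321 to 56323486, plus strand), which binds newly copied DNA methylated on one strand and recruits the maintenance methyltransferase Dnmt1, was at 45.3, 72.1, 93.3 and 90.5 CPM in control replicates 1 to 4. Replicates of the BAF155 cKO were at 54.4, 81.5, 55.3 and 42.96 CPM and Pax6-labelled ones at 47.6, 53.4, 46.9 and 46.9 CPM. Control replicate 1 was below all Pax6-labelled libraries and the other 3 controls were above them. The log2 fold change in the BAF155 cKO was −0.36 (SE 0.20, adjusted p = 0.229), against −0.63 (SE 0.20, adjusted p = 0.0267) in the Pax6-labelled libraries, where the call was lost in 5 of the 12 fits without a library, those without control replicate 3 or 4 or Pax6-labelled replicate 1, 3 or 4, and against same-sex controls (adjusted p = 0.485). Chaf1a and Chaf1b, subunits of the chromatin assembly factor that places histones on new DNA, did not pass the test, at −0.16 and −0.37 for Chaf1a and −0.02 and −0.07 for Chaf1b. Exons of Ubxn6 overlap 52.5% of the exon length of Chaf1a.

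The cyclin E genes, whose products drive entry into S phase with Cdk2, differed from each other. Ccne2 (ENSMUSG00000028212, mm10 chromosome 4, 11191351 to 11204779, plus strand) was at 22.6, 31.3, 23.6 and 24.4 CPM in control replicates 1 to 4. The BAF155 cKO libraries held 30.1, 23.2, 25.2 and 32.8 CPM, while the Pax6-labelled libraries held 39.6, 35.6, 37.5 and 42.7 CPM. The BAF155 cKO overlapped the controls and the Pax6-labelled libraries lay above both other groups. It rose there by 0.61 on the log2 scale (SE 0.12, adjusted p = 0.00212) and was called in every fit run, at 0.24 with the GC and length correction (adjusted p = 0.0366), against 0.13 (SE 0.12, adjusted p = 0.482) in the BAF155 cKO. Exons of Ints8 overlap 17.4% of the exon length of Ccne2. Ccne1 was at 11.0 to 16.0 CPM in control, 10.9 to 12.8 CPM in the BAF155 cKO and 11.8 to 13.5 CPM in the Pax6-labelled libraries and did not pass the test, at −0.23 (SE 0.12) and −0.11 (SE 0.12).

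Set directly against each other, the BAF155 cKO and the Pax6-labelled libraries differed at 2 of the 46 genes, both lower in the BAF155 cKO, with 0 higher; over all genes 2.01% were lower and 2.3% higher. These were Gins1, at a log2 difference of −0.31 (SE 0.09, adjusted p = 0.0497), and Ccne2, at −0.48 (SE 0.12, adjusted p = 0.0358). For 6 genes all 4 BAF155 cKO libraries lay below all 4 Pax6-labelled ones, and for 0 above, where 7.83% and 7.5% of all genes did so; beside Gins1 and Ccne2 these were Gins4 (adjusted p = 0.0565), Prim1 (0.148), Pole2 (0.215) and Rfc4 (0.0607). At an unadjusted p under 0.05, 8 genes were lower and 0 higher, where 11.1% and 10.3% of all genes were, and DESeq2 called 4 lower, against 3.97% of all genes. The Gins1 call was lost in each of the 12 fits without a library, with an adjusted p of up to 0.141, and the Ccne2 call in 7 of them, those without BAF155 cKO replicate 1, 2 or 3 or any Pax6-labelled replicate, with an adjusted p of up to 0.112. Within sequencing lane 1, which holds BAF155 cKO replicates 1 and 2 and all Pax6-labelled libraries, 0 of the 46 genes were called. In that fit 1.78% of all genes were called higher and 0.956% lower. The 2 groups differ in embryo sex in every library, so sex and genotype cannot be told apart in this contrast. The median log2 difference of the 46 genes was −0.03, against 0.01 over all genes.

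Because subunits of one complex parted, the CPM of 1 subunit was divided by that of another within each library. These 7 pairs were chosen after the values were seen and are given without a test. CPM is not corrected for length, so the size of a ratio has no meaning and only libraries are compared. The ratios are also not corrected for the trend of fold change on GC content and length given below. In all 7 pairs the first gene has the shorter exon length, such as 1.14 kb for Rpa3 against 5.58 kb for Rpa1. The part of that trend in the ratios was not tested. Prim1 over Prim2 was 1.254 to 1.41 in control, 1.54 to 2.39 in the BAF155 cKO and 1.82 to 2.26 in the Pax6-labelled libraries, with no overlap with control. Rpa3 over Rpa1 was 0.228 to 0.383, 0.358 to 1.03 and 0.595 to 0.813 in the same order, where BAF155 cKO replicate 2 fell within the controls. Mcm3 over Mcm7 was 0.530 to 0.83 in control, 0.401 to 0.569 in the BAF155 cKO and 0.405 to 0.432 in the Pax6-labelled libraries. Rfc3 over Rfc1 was 0.683 to 1.16, 1.02 to 2.13 and 1.78 to 1.98. Pole2 over Pole was 0.183 to 0.272, 0.257 to 0.351 and 0.344 to 0.465, and Gmnn over Cdt1 was 1.08 to 1.72, 1.43 to 2.64 and 2.21 to 3.04. For Cdc7 over Dbf4 the ranges were 0.888 to 1.75, 1.254 to 2.03 and 1.54 to 1.84. The range of the Pax6-labelled libraries lay outside that of the controls for each pair except Cdc7 over Dbf4, and that of the BAF155 cKO for Prim1 over Prim2 alone.

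Fold changes across the 46 genes moved with transcript GC content and with exon length. Over the 46 genes, the Spearman correlation between log2 fold change and GC content was −0.46 in the BAF155 cKO and −0.49 in the Pax6-labelled libraries, against −0.15 and −0.18 over 16467 genes. For exon length it was −0.40 and −0.50, against −0.23 and −0.35. These are correlations across genes of the same libraries, which are not independent replicates. Both comparisons share the genes, with their GC content and length, and the control libraries. The 23 genes of lower GC content held 9 of the 10 genes called higher in the BAF155 cKO and 11 of the 14 in the Pax6-labelled libraries, and the 23 shorter genes held 8 and 10. After the GC and length correction, 7 genes were called higher and 0 lower in the BAF155 cKO, with Gmnn, Pole2, Pcna, Rfc4 and Rpa3 lost and Rfc2 and Tyms gained, where 6.39% and 7.76% of all genes were called. In the Pax6-labelled libraries 14 were called higher and 4 lower, with Mcm2, Gins1 and Rfc4 lost and Rfc2 and Tk1 gained, where 13.6% and 16.4% of all genes were called. Among the calls kept there, log2 fold changes shrank by over 1.5 times for Orc6 (to 0.37), Gmnn (0.45), Gins4 (0.25), Pole2 (0.34), Rpa3 (0.41) and Ccne2 (0.24). The Spearman correlation over the 46 genes was then −0.27 and −0.29 for GC content and −0.16 and −0.19 for length.

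**Figure D5:**
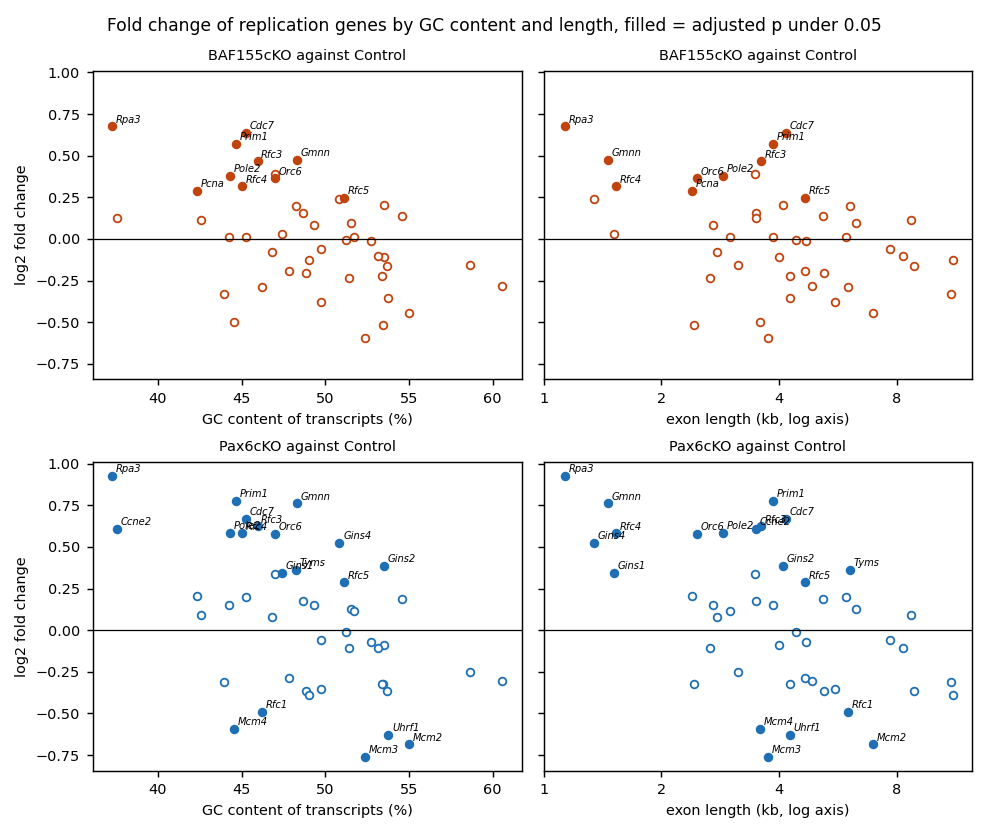
Log2 fold change against control (y axes) of the 46 replication genes plotted against the GC content of their transcripts (left, percent) and their exon length (right, kb, log axis), for the BAF155 cKO (top) and the Pax6-labelled libraries (bottom), with called genes filled and named. Genes called higher lie towards low GC content and short exons, and the Spearman correlation is −0.46 and −0.49 for GC content.

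The pattern was set beside 4 further lists of the cell cycle. Of 38 other replication genes, 4 were called higher and 0 lower in the BAF155 cKO, with a median log2 fold change of 0.02, and 12 higher and 3 lower in the Pax6-labelled libraries, with a median of 0.10. Cdca7, which helps recruit a chromatin remodeller to replicating DNA, had a mean of 94.2 ± 16.3 CPM in control (SD, n = 4), 144 ± 22.9 CPM in BAF155 cKO libraries and 208 ± 10.5 CPM in Pax6-labelled ones. Its log2 fold changes were 0.61 (SE 0.13, adjusted p = 0.0059) and 1.14 (SE 0.13, adjusted p = 1.9e-05). Dscc1, a subunit of an alternative clamp loader, rose by 0.49 (SE 0.12, adjusted p = 0.0166) and 0.64 (SE 0.12, adjusted p = 0.00144). In the Pax6-labelled libraries Dnmt1, the methyltransferase that Uhrf1 recruits, fell by 0.66 on the log2 scale (SE 0.15, adjusted p = 0.00471), and Clspn, the checkpoint adaptor claspin, fell by 0.53 (SE 0.19, adjusted p = 0.038). Against same-sex controls 2 of the 38 genes were called higher and 0 lower in the Pax6-labelled libraries, with Dnmt1 (adjusted p = 0.131) and Clspn (adjusted p = 0.588) lost, and 4 higher and 3 lower in the BAF155 cKO, with Dscc1 lost (adjusted p = 0.0577). In those fits 3.07% of all genes were called higher and 4.9% lower in the Pax6-labelled libraries. The BAF155 cKO shares were 10.7% and 14.5%. With the GC and length correction 4 of the 38 were higher and 2 lower in the Pax6-labelled libraries, Clspn again lost. In the BAF155 cKO 3 were higher and 0 lower. The shares of all genes were 13.6% and 16.4%, and 6.39% and 7.76%, in the same order. The Clspn call was also lost without control replicate 3 or 4 or any Pax6-labelled replicate (adjusted p of up to 0.139), and the BAF155 cKO call of Dscc1 without BAF155 cKO replicate 4 (adjusted p = 0.0547). Cdca7 was called in both comparisons in every fit run.

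Of 13 genes of the E2F and RB family, which switch S-phase genes on and off, 0 were called in the BAF155 cKO, where 2 were higher and 1 lower at an unadjusted p under 0.05. In the Pax6-labelled libraries 0 were called higher and 5 lower, among them E2f3, an activator (log2 fold change −0.46, SE 0.11, adjusted p = 0.00684), and its partner Tfdp2 (−0.47, SE 0.12, adjusted p = 0.00658). Against same-sex controls 0 of the 13 were called lower there, E2f3 and Tfdp2 included (adjusted p = 0.156 and 0.188), the median log2 fold change was 0.03 in place of −0.13, and 4 were called lower in the BAF155 cKO. Of 9 genes of the replication checkpoint 0 were called in the BAF155 cKO, with 2 higher and 0 lower at an unadjusted p under 0.05, and 2 were called lower in the Pax6-labelled libraries: Cdc25a, the phosphatase that activates Cdk2 (−0.33, SE 0.10, adjusted p = 0.0172), and Hus1, a part of the checkpoint clamp (−0.41, SE 0.12, adjusted p = 0.0179). Both calls were lost against same-sex controls (adjusted p = 0.329 and 0.211), where 2 of the 9 were called lower in the BAF155 cKO, and both without control replicate 3 or 4, Hus1 also without Pax6-labelled replicate 3 and Cdc25a with the GC and length correction. Of 24 mitosis genes, 3 were called higher and 0 lower in the BAF155 cKO, and 5 higher and 3 lower in the Pax6-labelled libraries. Cenpa, the centromeric histone, rose by 0.47 (SE 0.10, adjusted p = 0.00715) and 0.69 (SE 0.10, adjusted p = 0.000196), and Birc5, survivin, by 0.44 (SE 0.09, adjusted p = 0.0046) and 0.57 (SE 0.09, adjusted p = 0.000329). Mki67, the proliferation marker, fell by 0.71 (SE 0.18, adjusted p = 0.00881) and Plk1, a mitotic kinase, by 0.75 (SE 0.21, adjusted p = 0.014) in the Pax6-labelled libraries. Both of these calls were lost against same-sex controls (adjusted p = 0.211 and 0.338) and without a filter on low counts, and that of Plk1 without control replicate 3 (adjusted p = 0.0616), while Cenpa and Birc5 were called in both comparisons in every fit run. Against same-sex controls 5 of the 24 were higher and 0 lower in the Pax6-labelled libraries, and 2 higher and 6 lower in the BAF155 cKO. In the same-sex fits used for these lists, 3.07% of all genes were called higher and 4.9% lower in the Pax6-labelled libraries. The BAF155 cKO shares were 10.7% and 14.5%. The 24 genes summed to 1408 to 2368 CPM in control, lowest in replicate 1, 1620 to 2370.2 CPM in the BAF155 cKO, highest in replicate 2, and 1858 to 1968 CPM in the Pax6-labelled libraries.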

How the data were processed

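RNA was extracted with the RNeasy kit, and libraries came from the unstranded TruSeq RNA v2 kit, per the labels' protocols. The authors deposited raw read counts per Ensembl gene, 1 table per library, on mm10 (per the submitters' processing notes). Aligner, counter and annotation: not given in the sources used here. GENCODE M21, matched for 48349 of 48709 identifiers, supplied symbols, positions, GC content and exon length.

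Titles gave groups and replicate numbers. In edgeR 4.0.16 (R 4.3.3), after filterByExpr (16511 genes) and TMM scaling, a single robust quasi-likelihood model with a coefficient for each group took in all 12 libraries. It was tested on simulated data. Genes at a Benjamini-Hochberg adjusted p under 0.05 over all genes were called, and "rose" and "fell" are used of them. A standard error is the absolute log2 fold change over the root of F. CPM per kb divides by the union of exons. The 46 genes and the other lists were chosen with earlier results of these data known, so no count over a list is independent support. All 46 could be named; of other lists, the 2 called genes of smallest adjusted p in each direction. Alternatives were RLE scaling, DESeq2 1.42.0, no filter, a minimum of 1 CPM in 4 libraries, only the 8 libraries of a comparison, a replicate block, a loess correction (span 0.3) for GC content and length, same-sex controls, each BAF155 cKO lane, and leaving out each library.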

Additional observations from a re-analysis of the deposited data

Results flagged for a closer look

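Within a group of 4 libraries, 1 library stood apart from the other 3 for 6 of the 141 gene and group combinations examined (the 46 replication genes and the summed level of all 46, in 3 groups), where chance gives about 1 in 20, or 7.05. Replicate 2 of the Pax6-labelled libraries was high for Mcm2, at 75.1 CPM against 60.5 to 62.8 CPM in the other 3, and for Uhrf1, at 53.4 CPM against 46.9 to 47.6 CPM. BAF155 cKO replicate 2 was high for Mcm10, at 29.1 CPM against 20.2 to 21.3 CPM, and BAF155 cKO replicate 4 for Gins2, at 21.9 CPM against 17.8 to 18.5 CPM. Control replicate 1 was low for the primase subunit Prim2, at 38.8 CPM against 43.9 to 44.5 CPM, and for the polymerase subunit Pole2, at 10.05 CPM against 11.7 to 11.98 CPM.

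In the direct contrast by edgeR's quasi-likelihood test, the BAF155 cKO and the Pax6-labelled libraries differed at 2 of the 46 genes. Both were lower in the BAF155 cKO, where 2.01% of all genes were. The difference, BAF155 cKO minus Pax6-labelled, was −0.31 on the log2 scale for the GINS subunit gene Gins1 and −0.48 for the cyclin gene Ccne2. The Pax6-labelled libraries were high for both genes, and the BAF155 cKO overlapped the controls. The Gins1 call was lost in each of the 12 fits without a library and the Ccne2 call in 7 of them. Embryo sex differs between these groups in every library, so sex and genotype cannot be told apart.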

How the results depend on the processing

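Over all settings and fits without a library, 2732 comparisons of a single gene with its first result kept their side of the threshold. A further 101 lost a call and 65 gained one. Direction was compared only where either fit called the gene, and none turned direction while called. The 10 genes called higher in the BAF155 cKO became 6 without a filter on low counts and 4 with BAF155 cKO replicates 1 and 2 alone, where the share of all genes went from 6.04% to 2.27% and 1.5%. The 0 called lower became 1 with DESeq2, 1 with replicates 3 and 4 alone and 12 with same-sex controls, where the share went from 7.56% to 9.29%, 7.11% and 14.5%. The 5 called lower in the Pax6-labelled libraries became 1 without a filter, 8 in a fit of the 8 libraries compared and 0 with same-sex controls, where the share went from 18.9% to 8.9%, 22.2% and 4.9%. In the direct contrast the 2 called lower became 1 with RLE scaling, 4 with DESeq2, 1 without a filter, 1 with the 8 libraries compared, 1 with the GC and length correction, and 0 with BAF155 cKO replicates 1 and 2 or 3 and 4 alone; the share of all genes, 2.01%, became 1.97%, 3.97%, 1.09%, 2.76%, 2.37%, and 0.956% or 0.397%. Leaving out 1 library at a time gave 6 to 10 higher and 0 to 9 lower genes in the BAF155 cKO, 14 to 15 higher and 1 to 13 lower in the Pax6-labelled libraries, and 0 higher and 0 to 2 lower in the direct contrast. The 6 came without BAF155 cKO replicate 4 (2.06% of all genes), the 9 and 13 without control replicate 1 (11.2% and 22.2%). The 1 came without control replicate 3 or 4 (12.4% and 12.9%). Without Pax6-labelled replicate 1, 3 or 4, 2 were lower, where 14.3%, 13.8% and 15% of all genes were. Over the fits with 14 to 15 higher in the Pax6-labelled libraries, the share of all genes ran from 10.3% to 17.6%. Fits with fewer samples did not always call fewer genes. With same-sex controls 10.7% of all genes were called higher and 14.5% lower in the BAF155 cKO. In the Pax6-labelled libraries these shares were 3.07% and 4.9%. The unfiltered fit tested 31198 genes. The cause of these changes was not tested.

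Libraries of different groups share replicate numbers 1 to 4, and deviations of same-numbered libraries correlated at −0.30 to 0.46. Correlations of differently numbered libraries were not examined, so whether the numbers pair the libraries cannot be told. With the replicate number as a block, 10 genes were higher and 2 lower in the BAF155 cKO, where 6.37% and 7.23% of all genes were. In the Pax6-labelled libraries 15 were higher and 6 lower, where 16.7% and 17.8% of all genes were. The direct contrast held 0 higher and 0 lower, against 1.51% and 1.5% of all genes. Depth limits Fen1, with 21 reads in its lowest library.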
